A study of Mus musculus with 8 samples.

Results

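The 34 genes described here form a list that follows the oligodendrocyte lineage from precursor to myelinating cell, taken by name from the count tables of mouse hippocampus. All 34 of the listed symbols were among the 24421 genes counted, and all 34 passed the default expression filter of edgeR, which left 15999 genes. For the description they were sorted by role into 7 precursor genes, 4 genes of committed and newly formed oligodendrocytes, 2 transcription factors of myelination, 10 genes of myelin and its membrane partners, 6 genes of myelin lipids and transport and 5 other genes enriched in myelinating cells.

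Oligodendrocytes are the glial cells that wrap axons of the central nervous system in myelin, a stack of compacted membrane that insulates the axon. They arise from proliferating precursors that carry the growth factor receptor Pdgfra, pass through a short committed state and then switch on the genes of myelin proteins and lipids together under factors such as Sox10 and Myrf. In the rodent hippocampus myelin is laid down after birth, so that the neonatal tissue holds precursors and few myelinating cells.

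The libraries came from the hippocampus of wildtype C57BL/6J mice, all labelled male, at postnatal day 3 (day 3) and at week 8. The IUGR groups, named for intrauterine growth retardation, were offspring of dams given dexamethasone, a synthetic glucocorticoid, by intraperitoneal injection of 1 mg/kg daily from 14.5 days post coitum for 5 days. The NS groups were offspring of dams given saline (NS, normal saline) in the same volume. There were 4 groups of 2 libraries each, IUGR at week 8, NS at week 8, IUGR at day 3 and NS at day 3, and values of a group are given below as replicate 1 and then replicate 2. The labels do not say whether the replicates came from separate animals, litters or pools, so p-values measure only the spread between these libraries.

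Each library held between 13030277 and 18993050 counts, and levels are given as CPM, the count scaled to a fixed total per library. Both replicate 2 libraries at day 3 went against their label of male, with Xist at 283 CPM in IUGR and 285 CPM in NS, while the other 6 libraries had at most 4.59 CPM. The 9 markers of hippocampal fields summed to 163 to 890.4 CPM over the libraries. Choroid plexus transcripts differed between replicates, since 14 markers of that epithelium summed to 8898 CPM in NS replicate 1 at week 8, 6674 CPM in NS replicate 2 at day 3 and 3477 CPM in IUGR replicate 1 at day 3, and to 160.3 to 526 CPM in the other 5 libraries. At week 8 the replicates were further apart than at day 3. The 10 neuronal markers, for instance, summed to 4614 and 11440 CPM in IUGR and to 4099 and 11890 CPM in NS at week 8, against 3612 and 3898 CPM in IUGR and 3682 and 3878 CPM in NS at day 3.

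Together the 34 genes took 0.466% and 0.532% of all counts in IUGR and 0.567% and 0.565% in NS at week 8, against 0.0544% and 0.0555% in IUGR and 0.0563% and 0.0576% in NS at day 3. The week 8 shares lay far above every day 3 share, and at both ages the IUGR libraries lay below the NS libraries without overlap. No test is attached to this order, which 2 libraries a group can show with no difference between the groups. Mbp alone, the basic protein that holds the cytoplasmic faces of compact myelin together, supplied 38.1% and 55.4% of the summed counts of the list in IUGR and 35.1% and 52.0% in NS at week 8. At day 3 it supplied 6.04% and 6.97% in IUGR and 7.06% and 8.05% in NS. Without Mbp the sums of IUGR and NS overlapped at week 8 but not at day 3. In bulk tissue fewer cells of a type and less RNA per cell cannot be told apart.

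**Figure D1:**
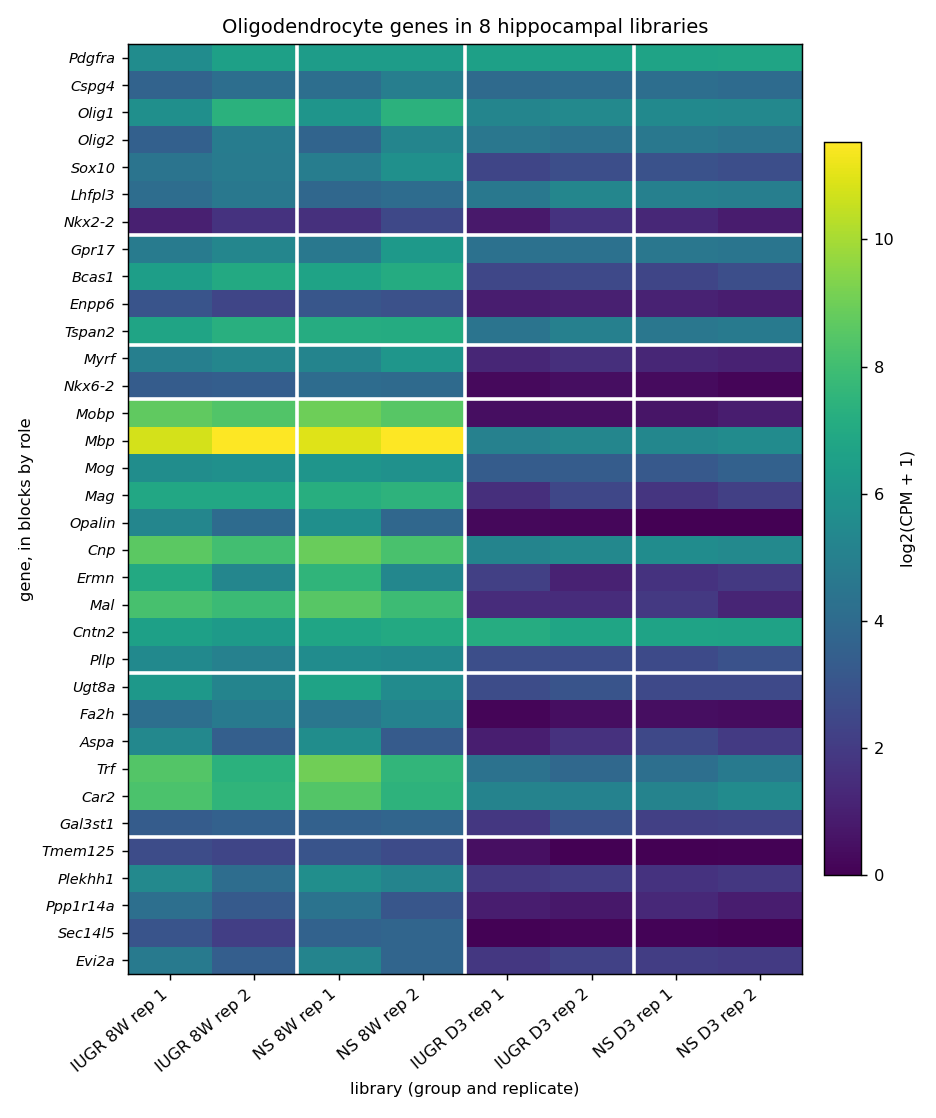
Levels of the 34 genes, one row per gene in blocks by role and one column per library, as log2(CPM + 1) on the colour scale. In the myelin block each gene but Cntn2 is brighter in all 4 week 8 libraries than in any day 3 library, although Mbp and Cnp stand at 32.8 to 47.6 CPM at day 3 too, and Pdgfra in the top row stays between 48.2 and 106 CPM.

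Per kilobase of gene length, which allows levels to be compared between genes, Mbp led at week 8 but not at day 3, while Car2 and Cnp were near the top at both ages. At week 8 Mbp led with 264 and 439 CPM per kb in IUGR and 297 and 438 CPM per kb in NS, above every other gene of the list in the same library. Car2, Cnp and Trf followed at 137, 123 and 109.5 CPM per kb on average in IUGR and at 146, 143 and 153 CPM per kb in NS, and their replicates overlapped. At day 3 the highest were Car2 with 19.5 and 18.9 CPM per kb in IUGR and 19.4 and 25.5 CPM per kb in NS, and Olig1 with 16.9 and 19.1 CPM per kb in IUGR and 20.0 and 18.5 CPM per kb in NS. These 2 genes overlapped each other. Mbp then stood at 4.89 and 5.76 CPM per kb in IUGR and 5.92 and 6.91 CPM per kb in NS, below Pdgfra, at 13.9 and 13.9 CPM per kb in IUGR and 15.2 and 15.7 CPM per kb in NS.

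Between day 3 and week 8, the genes of differentiated oligodendrocytes rose together in the offspring of both kinds of dam, while most precursor genes did not pass the test. In IUGR 25 of the 34 genes were higher at week 8 at an adjusted p under 0.05 (edgeR quasi-likelihood test, Benjamini-Hochberg adjustment over all genes) and 0 were lower, where 9.34% of all tested genes were called higher and 7.48% lower. In NS 25 genes were higher and 0 lower, against a background of 7.7% higher and 6.44% lower. The median log2 fold change of the list was 3.22 in IUGR and 3.08 in NS, and that of all tested genes was 0.02 in IUGR and 0.04 in NS. At an unadjusted p under 0.05 by edgeR, 27 genes of the list passed in IUGR, against 34.3% of all tested genes, and 28 in NS, against 32.3%. DESeq2 called 27 genes of the list higher in IUGR, against 11.8% of its genes, and 26 in NS, against 10.6%.

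The 2 sets of 25 shared 24 genes, with Aspa called in IUGR alone and Gal3st1 in NS alone, and 8 genes were called in neither. In 28 of the 34 genes all 4 week 8 libraries lay above all 4 day 3 libraries, against 21.1% of all tested genes, and in 1, Pdgfra, all lay below, against 26.0% of all tested genes. The counts depended on the number of day 3 libraries. Without IUGR replicate 1 or replicate 2 of day 3, 6 and 10 genes were called in IUGR, against 0.225% and 0.437% of all tested genes. Without NS replicate 1 or replicate 2 of day 3, 8 and 5 were called in NS, against 0.174% and 0.103%. With both day 3 libraries that carried Xist left out, 0 genes of the list and 0 of all tested genes were called by edgeR in either comparison, with 26 genes of the list at an unadjusted p under 0.05 in IUGR, against 12.9% of all tested genes, and 25 in NS, against 11.0%. The median log2 fold change of the list was then 3.34 in IUGR and 3.10 in NS.

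Among the 7 precursor genes, Sox10 (chr15:79154908-79165240, minus strand, GRCm38), a transcription factor present through the whole lineage, was the only one called in either group. It had 20.4 and 26.9 CPM in IUGR and 28.9 and 54.5 CPM in NS at week 8, against 4.37 and 5.90 CPM in IUGR and 6.53 and 5.77 CPM in NS at day 3. The lowest week 8 library was above the highest day 3 library, and its log2 fold change was 2.31 ± 0.38 in IUGR (SE, n = 2 libraries a group, edgeR adjusted p = 0.0128) and 2.79 ± 0.39 in NS (edgeR adjusted p = 0.00912). Pdgfra, the receptor for platelet-derived growth factor on precursors, had 48.2 and 91.8 CPM in IUGR and 82.3 and 81.9 CPM in NS at week 8, against 93.3 and 93.6 CPM in IUGR and 103 and 106 CPM in NS at day 3. All week 8 libraries were lower, but the log2 fold changes of -0.31 ± 0.31 in IUGR and -0.32 ± 0.30 in NS did not pass the test.

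The other 5 precursor genes did not pass in either group. Cspg4, which encodes the NG2 proteoglycan of precursor surfaces, had log2 fold changes of 0.04 ± 0.34 in IUGR and 0.57 ± 0.34 in NS. Of the helix-loop-helix factors that specify the lineage, Olig1 had 1.58 ± 0.63 and 1.52 ± 0.63 in IUGR and NS, with adjusted p of 0.132 and 0.152 by edgeR, and Olig2 had -0.03 ± 0.61 in IUGR and 0.22 ± 0.61 in NS. Both genes were split by replicate at week 8, and Olig1, for example, had 51.9 and 164 CPM in IUGR and 63.5 and 170.3 CPM in NS. Lhfpl3, a membrane protein gene enriched in precursors, stood at -0.51 ± 0.31 in IUGR and -1.05 ± 0.31 in NS (edgeR adjusted p = 0.0691). Nkx2-2, a homeodomain factor that promotes differentiation, had at most 4.69 CPM in any library and log2 fold changes of 0.26 ± 0.75 in IUGR and 1.59 ± 0.75 in NS.

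Of the genes of committed and newly formed oligodendrocytes, 3 of 4 rose in both groups. Bcas1, which marks cells that are starting to myelinate, had 88.5 and 128 CPM in IUGR and 101 and 136 CPM in NS at week 8, against 4.48 and 4.80 CPM in IUGR and 4.26 and 5.77 CPM in NS at day 3. The ages were far apart, with log2 fold changes of 4.65 ± 0.33 in IUGR (edgeR adjusted p = 0.00188) and 4.58 ± 0.33 in NS (edgeR adjusted p = 0.00244). Enpp6, a choline phosphodiesterase of newly formed oligodendrocytes, rose by 2.67 ± 0.41 in IUGR and 2.75 ± 0.41 in NS, and the tetraspanin gene Tspan2 by 2.43 ± 0.30 and 2.54 ± 0.30 on the log2 scale. Gpr17, a receptor found for a short time in committed precursors, had 26.6 and 38.3 CPM in IUGR and 23.7 and 72.1 CPM in NS at week 8, against 18.6 and 18.8 CPM in IUGR and 22.8 and 21.5 CPM in NS at day 3. Its day 3 libraries all lay below its week 8 libraries, but log2 fold changes of 0.90 ± 0.50 in IUGR and 1.15 ± 0.50 in NS did not pass.

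Both transcription factors of the myelination step rose in both groups. Myrf, a membrane-anchored factor that is cleaved and then acts at myelin genes, had 30.2 and 38.1 CPM in IUGR and 35.8 and 66.1 CPM in NS at week 8, against 1.36 and 1.93 CPM in IUGR and 1.38 and 1.14 CPM in NS at day 3. Its log2 fold change was 4.48 ± 0.41 in IUGR (edgeR adjusted p = 0.00315) and 5.37 ± 0.43 in NS (edgeR adjusted p = 0.00264). Nkx6-2, a homeodomain factor of maturing oligodendrocytes, rose by 5.18 ± 0.43 in IUGR and by 6.31 ± 0.46 in NS on the log2 scale. At day 3 it had only 10 counts over both IUGR libraries and 6 over both NS libraries, and its exons overlap those of Inpp5a on the opposite strand, which reached 38.6 CPM. Whether the counting used strand is not given, so reads of such a pair cannot be assigned with certainty.

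Of the genes of myelin and its membrane partners, 9 of 10 rose in both groups. Mobp (chr9:120149707-120181484, plus strand, GRCm38), a basic protein of compact myelin, had 421 and 341 CPM in IUGR and 509 and 365 CPM in NS at week 8, against 0.340 and 0.386 CPM in IUGR and 0.550 and 0.913 CPM in NS at day 3. It was close to absent at day 3, and its log2 fold change was 10.11 ± 0.43 in IUGR (edgeR adjusted p = 0.00101) and 9.22 ± 0.41 in NS (edgeR adjusted p = 0.00113). Mbp had 1774 and 2948 CPM in IUGR and 1992 and 2940 CPM in NS at week 8, against 32.8 and 38.7 CPM in IUGR and 39.8 and 46.4 CPM in NS at day 3. It was the gene of the list with the most counts at week 8 in every library, and it rose by 6.15 ± 0.44 in IUGR (edgeR adjusted p = 0.00188) and 5.87 ± 0.43 in NS (edgeR adjusted p = 0.00244) on the log2 scale. Mal, a proteolipid of lipid rafts, rose by 7.29 ± 0.49 in IUGR and 7.24 ± 0.49 in NS.

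Mag, the adhesion protein of the innermost myelin layer that faces the axon, had 118 and 119 CPM in IUGR and 150.2 and 172 CPM in NS at week 8, against 1.93 and 4.41 CPM in IUGR and 2.41 and 3.48 CPM in NS at day 3. Its log2 fold change was 5.33 ± 0.45 in IUGR and 5.80 ± 0.46 in NS. Mog, a glycoprotein of the outermost myelin surface, had 49.4 and 53.6 CPM in IUGR and 64.5 and 55.7 CPM in NS at week 8, against 9.13 and 9.37 CPM in IUGR and 8.39 and 10.9 CPM in NS at day 3. It was already counted at day 3 and rose less than Mag, by 2.58 ± 0.22 in IUGR and 2.67 ± 0.23 in NS. Log2 fold changes in IUGR and in NS were 3.21 ± 0.34 and 3.12 ± 0.33 for Cnp, a phosphodiesterase of uncompacted myelin. They were 5.23 ± 1.0 and 5.47 ± 1.0 for Ermn, a cytoskeletal protein, and 2.82 ± 0.25 and 3.04 ± 0.26 for Pllp, a proteolipid. Exons of Cnp overlap those of Dnajc7 on the opposite strand, which reached 163 CPM.

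Opalin, a transmembrane protein gene of mature oligodendrocytes, had 570 and 224 counts in IUGR and 687 and 259 counts in NS at week 8, against 3 and 3 counts in IUGR and 0 and 0 counts in NS at day 3. By pooled counts over library totals it was 161-fold higher at week 8 in IUGR, with a 95% counting interval of 73.7 to 441. In NS it was at least 316-fold higher, taking 3 counts over the group for the 0. Intervals and floors of this kind cover counting error only. Cntn2, an adhesion molecule that joins axon and myelin beside the node and is also made by neurons, was the exception. It had 91.5 and 75.9 CPM in IUGR and 109 and 127 CPM in NS at week 8, against 140.4 and 108 CPM in IUGR and 103 and 99.8 CPM in NS at day 3. Its log2 fold changes of -0.47 ± 0.22 in IUGR and 0.24 ± 0.22 in NS did not pass the test.

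Of the lipid and transport genes, 5 of 6 rose in each group. Ugt8a, which makes galactosylceramide, had 70.0 and 36.3 CPM in IUGR and 103 and 46.1 CPM in NS at week 8, against 5.39 and 6.89 CPM in IUGR and 4.88 and 4.80 CPM in NS at day 3. It rose by 3.22 ± 0.49 in IUGR and 3.96 ± 0.51 in NS on the log2 scale. Fa2h, the hydroxylase of the fatty acids in these lipids, rose by 6.67 ± 0.53 in IUGR and 6.47 ± 0.52 in NS. It had only 8 counts over both IUGR libraries and 10 over both NS libraries at day 3. Gal3st1, which sulphates galactosylceramide to sulfatide, had log2 fold changes of 1.29 ± 0.42 in IUGR (edgeR adjusted p = 0.0839) and 1.72 ± 0.43 in NS (edgeR adjusted p = 0.045).

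Aspa, the aspartoacylase that releases acetate from N-acetylaspartate, had 40.3 and 10.2 CPM in IUGR and 48.7 and 9.0 CPM in NS at week 8, against 0.964 and 2.09 CPM in IUGR and 4.61 and 2.86 CPM in NS at day 3. Replicate 1 stood far above replicate 2 at week 8 in both groups, and the log2 fold change was 4.14 ± 1.0 in IUGR (edgeR adjusted p = 0.0413) and 2.97 ± 0.98 in NS (edgeR adjusted p = 0.092). For Aspa and Gal3st1 a call in one group alone does not show a difference between the groups, and that difference passed the test for neither. The iron carrier transferrin, Trf, rose by 4.04 ± 0.62 in IUGR and 4.07 ± 0.62 in NS, and carbonic anhydrase Car2 by 2.94 ± 0.42 and 2.72 ± 0.42. Both are also made by the choroid plexus, whose markers were highest in NS replicate 1 at week 8, where Trf stood at 520.1 CPM and Car2 at 348 CPM, and the part of these cells in the change was not tested.

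All 5 remaining genes of myelinating cells rose in both groups. Plekhh1, which has pleckstrin homology domains, rose by 3.45 ± 0.50 in IUGR and 4.15 ± 0.52 in NS, and Ppp1r14a, which encodes an inhibitor of myosin phosphatase, by 4.14 ± 0.66 and 3.5 ± 0.63 on the log2 scale. Evi2a rose by 2.63 ± 0.64 in IUGR and 3.00 ± 0.65 in NS. Sec14l5 had 103 and 49 counts in IUGR and 147 and 237 counts in NS at week 8, against 1 and 2 counts in IUGR and 1 and 0 counts in NS at day 3. This made it 61.7-fold higher at week 8 in IUGR (95% counting interval 20.7 to 303) and 384-fold higher in NS (68.6 to 15200). Tmem125 was 24.9-fold higher in IUGR (11.8 to 63.0) and 190-fold higher in NS (33.7 to 7550), where NS had 1 count at day 3.

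**Figure D2:**
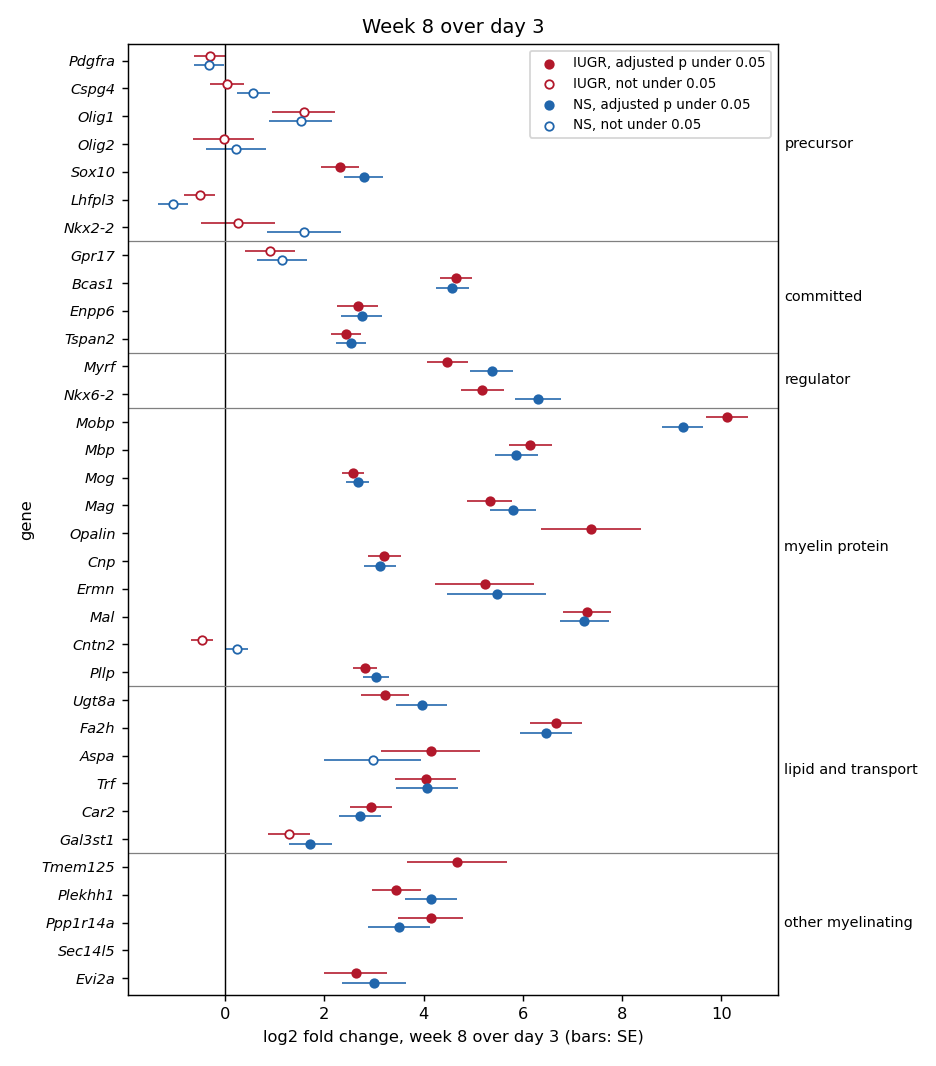
Log2 fold changes of week 8 over day 3 (x axis, bars are SE) for each gene (y axis), in IUGR in red above and in NS in blue below, with filled points for an edgeR adjusted p under 0.05. Values against at most 3 pooled day 3 counts are left out (Opalin and Tmem125 in NS, Sec14l5 in both), and filled points sit well right of 0 in every block but the precursor genes, where Sox10 alone is filled.

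Promoters of 24 of the 34 genes were found in the RefSeq table of GRCm38.p6, and the 250 bases before the start were searched on both strands for 4 short motifs. CTGGNAC, searched as a loose form of the Myrf core with any base at N, was present in 7 of the 24 (29.2%). It was present in 15.5% of 17224 promoters of counted genes. ACAANG, searched as a loose form of the core of Sox factor sites with any base at N, was present in 11 (45.8%), against 34.3%. At least one of these was present in 62.5% of the promoters of the list and in 44.4% of all. CAGCTG, an E-box read by helix-loop-helix factors, was present in 2 (8.33%), against 12.2%, and TATAAA in 2 (8.33%), against 11.9%. Such matches are descriptions and not evidence of binding. The CG dinucleotide was scarce before the myelin genes, with a median of 4 (2 to 13) in 9 promoters of that role, against 11 (4 to 22) in 5 promoters of precursor genes, 15 (10 to 18) in 4 of the other myelinating genes and 10 over all promoters.

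The following 4 windows are shown because their genes rose in both groups and they differ in which motif they hold and in CG content. Each runs from 5′ to 3′ on the strand of its gene and ends at the base before the start, with matches to CTGGNAC or ACAANG on either strand in capitals. The matches of these motifs did not overlap one another, and the starts are the same in GENCODE M21. The windows are chr19:41077114-41077363 on the minus strand for Opalin, chr17:37023399-37023648 on the minus strand for Mog, chr2:58052865-58053114 on the minus strand for Ermn and chr12:79028913-79029162 on the plus strand for Plekhh1.
Opalin: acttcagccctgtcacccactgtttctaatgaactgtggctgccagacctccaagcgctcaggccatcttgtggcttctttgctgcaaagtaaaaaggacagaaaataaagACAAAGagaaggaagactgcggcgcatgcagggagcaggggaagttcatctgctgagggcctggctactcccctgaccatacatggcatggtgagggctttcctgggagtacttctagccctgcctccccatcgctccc
Mog: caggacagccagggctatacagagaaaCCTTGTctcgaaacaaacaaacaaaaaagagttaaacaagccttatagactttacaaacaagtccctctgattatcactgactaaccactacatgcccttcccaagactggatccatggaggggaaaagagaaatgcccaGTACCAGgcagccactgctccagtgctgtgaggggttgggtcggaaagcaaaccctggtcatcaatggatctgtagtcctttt
Ermn: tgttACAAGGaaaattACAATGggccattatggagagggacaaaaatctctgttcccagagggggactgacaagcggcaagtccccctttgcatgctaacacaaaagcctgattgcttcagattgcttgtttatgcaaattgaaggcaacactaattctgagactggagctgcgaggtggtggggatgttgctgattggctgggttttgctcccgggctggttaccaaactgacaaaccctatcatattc
Plekhh1: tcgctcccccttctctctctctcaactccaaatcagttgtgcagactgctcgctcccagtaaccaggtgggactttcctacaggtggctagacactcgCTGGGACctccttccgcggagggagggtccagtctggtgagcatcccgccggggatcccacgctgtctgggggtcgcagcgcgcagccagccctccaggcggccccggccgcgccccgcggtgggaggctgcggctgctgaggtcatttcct
The window of Mog holds both motifs, with the match to CTGGNAC 77 to 83 bases before the start. Its match to ACAANG lies 218 to 223 bases before the start and reads ACAAGG on the other strand. Opalin has 1 match to ACAANG, 134 to 139 bases before the start. Ermn has 2 such matches near the far end, ACAAGG and ACAATG. Plekhh1 has a match to CTGGNAC 146 to 152 bases before the start, with G at the open base. It has 18 CG dinucleotides, against 4 in Opalin, 3 in Ermn and 2 in Mog.

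The question that the study's treatment puts to these genes is whether prenatal dexamethasone changed them. At week 8 most genes of the list were slightly lower in IUGR than in NS, and none passed the test. The log2 fold change was below 0 for 31 of 34 genes (91.2%), against 47.1% of all tested genes, with a median of -0.23 in the list and 0.02 over all genes. No gene of the list and 0.0% of all tested genes reached an adjusted p under 0.05 by edgeR or by DESeq2 in the fit of all 8 libraries. At an unadjusted p under 0.05 edgeR gave 161 of the 15999 genes and 0 of the list. Fitted on the 4 week 8 libraries alone, edgeR gave 0 genes of the list at an unadjusted p under 0.05, against 29 of 15143 genes. DESeq2 gave 0 without a replicate block, against 51 of 19565, and 3 with it, against 252 of 19565. An edgeR fit with the block, chosen after seeing the data, gave 7, against 3.98% of all tested genes. It gave 0 at an adjusted p under 0.05.

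Split by replicate number, the same 4 libraries gave the same direction, which is not a second observation. Genes of one lineage are not independent replicates, and no test is attached to the counts of lower genes at week 8. Between the replicate 1 libraries 32 of 34 genes were lower in IUGR, with a median difference of -0.30 in log2(CPM + 1), and between the replicate 2 libraries 26 were lower, with a median of -0.22. Among all tested genes 58.3% and 54.7% were lower in these pairs. Within both numbers 25 genes were lower and 1, Lhfpl3, was higher. The 4 libraries did not overlap, with IUGR lower, for 8 genes (23.5%, against 9.01% of all tested genes), namely Cspg4, Sox10, Mog, Mag, Nkx6-2, Sec14l5, Cntn2 and Pllp. They did not overlap, with IUGR higher, for Lhfpl3 (2.94%, against 4.08%).

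The 8 genes with the smallest p at week 8 included 5 transcription factors or precursor genes that were lower. Sec14l5 (chr16:5147109-5187271, plus strand, GRCm38) had 6.97 and 3.36 CPM in IUGR and 11.3 and 12.5 CPM in NS. The groups did not overlap, and the log2 fold change was -1.13 ± 0.52 (edgeR adjusted p = 1.0). Sox10, at the levels given above, had a log2 fold change of -0.75 ± 0.36 (edgeR adjusted p = 1.0). Cspg4 had 11.8 and 17.0 CPM in IUGR and 17.1 and 30.0 CPM in NS. The higher IUGR library lay just below the lower NS library, with a log2 fold change of -0.64 ± 0.34 (edgeR adjusted p = 1.0).

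Nkx6-2 had 9.26 and 10.0 CPM in IUGR and 16.0 and 14.8 CPM in NS, a log2 fold change of -0.60 ± 0.34. Myrf and Nkx2-2, whose groups overlapped, had log2 fold changes of -0.51 ± 0.35 and -0.98 ± 0.74. For Myrf the value was 0.03 without NS replicate 2 of week 8. Cntn2 stood at -0.42 ± 0.22 with no overlap. Lhfpl3 had 16.2 and 23.8 CPM in IUGR and 13.3 and 15.8 CPM in NS, a log2 fold change of 0.54 ± 0.31, and was the one gene of these 8 that was higher in IUGR.

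The myelin genes with the most counts stood close to or below NS. For Mbp the IUGR minus NS difference was -0.17 in log2(CPM + 1) between the replicate 1 libraries and 0.00 between the replicate 2 libraries. For Mobp the differences were -0.27 and -0.10, for Cnp -0.24 and -0.17 and for Mal -0.39 and -0.05. For Mog they were -0.38 and -0.05, and for Mag, whose groups did not overlap, -0.34 and -0.54. The list without Mbp summed to 2883 and 2371 CPM in IUGR and to 3680 and 2714 CPM in NS, which overlapped.

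The count of lower genes rested in part on single libraries. Without NS replicate 1 of week 8, 21 genes were lower with a median of -0.16, and without IUGR replicate 2 of week 8, 22 were lower with a median of -0.24. Without IUGR replicate 1 of week 8, 27 were lower and the median was -0.43. Endothelial markers moved in the same direction, all 8 of them being lower in IUGR at week 8 with a median of -1.06, and they summed to 69.2 and 71.7 CPM in IUGR and 128 and 137 CPM in NS. Markers of pericytes and mural cells, which also make Cspg4, were lower in 7 of 8 with a median of -0.51, and summed to 116 and 81.2 CPM in IUGR and 226 and 119 CPM in NS. Meningeal markers were lower in 15 of 15 and choroid plexus markers in 14 of 14, with sums of 353 and 204 CPM in IUGR and 8898 and 224 CPM in NS for the choroid plexus. Astrocyte and microglial markers were at medians of 0.02 and -0.02. The part of these cells in the values of the list was not tested.

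At day 3 the list showed no common direction. The log2 fold change of IUGR over NS was below 0 for 20 of 34 genes (58.8%, against 48.0% of all tested genes), with a median of -0.08 in the list and 0.01 over all genes. The median was -0.18 between the replicate 1 libraries and 0.04 between the replicate 2 libraries, which are those that carried Xist. The 11 markers of thalamus and habenula summed to 256.3 and 592.8 CPM in IUGR and 348.8 and 270.2 CPM in NS at day 3. For 9 of them the log2 fold change of IUGR over NS was above 0, with a median of 0.58. The part of such tissue in the values of the list was not tested. No gene of the list and 0.0% of all tested genes reached an adjusted p under 0.05 by edgeR or by DESeq2 in the fit of all 8 libraries, and edgeR gave 96 genes at an unadjusted p under 0.05, 1 of them in the list. The fit of all 8 libraries takes part of its spread from week 8. Fitted on the 4 day 3 libraries alone, edgeR gave 839 of 15435 genes at an unadjusted p under 0.05 and called 0. Of the list that fit tested 28 genes, and 1 was at an unadjusted p under 0.05. DESeq2 on the same 4 libraries called 2 genes higher and 58 lower, 0 of them in the list. IUGR lay below NS without overlap for 7 genes (20.6%, against 16.6% of all tested genes) and above it for 3 (8.82%, against 19.7%).

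The one gene of the list at an unadjusted p under 0.05 by edgeR in the fit of all 8 libraries was Mobp. It had 6 and 7 counts in IUGR and 8 and 16 counts in NS. The groups did not overlap, at a log2 fold change of -1.01 ± 0.39 (edgeR adjusted p = 1.0). Opalin (3 and 3 counts in IUGR, 0 and 0 in NS), Tmem125 (7 and 0 counts in IUGR, 0 and 1 in NS) and Sec14l5 (1 and 2 counts in IUGR, 1 and 0 in NS), which had at most 3 counts over the NS libraries, are given by counts alone. They had more counts in IUGR, with p-values within the range of the genes named here. Of the genes with more counts, the other 7 with the smallest p had log2 fold changes of 0.29 ± 0.22 for Cntn2, -1.28 ± 0.98 for Aspa, -0.62 ± 0.64 for Ppp1r14a and 0.39 ± 0.40 for Myrf. For Nkx6-2 it was 0.54 ± 0.52, for Mbp -0.27 ± 0.35 and for Fa2h -0.48 ± 0.61. Without the day 3 libraries that carried Xist, Myrf stood at -0.01 and Nkx6-2 at -0.26, so that neither kept its sign. Pdgfra, a marker of precursors, had 93.3 and 93.6 CPM in IUGR and 103 and 106 CPM in NS, which did not overlap. Markers of meninges and fibroblasts were lower in IUGR at this age too, 15 of 15 with a median of -0.87. The part of those cells in the value of Pdgfra was not tested.

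**Figure D3:**
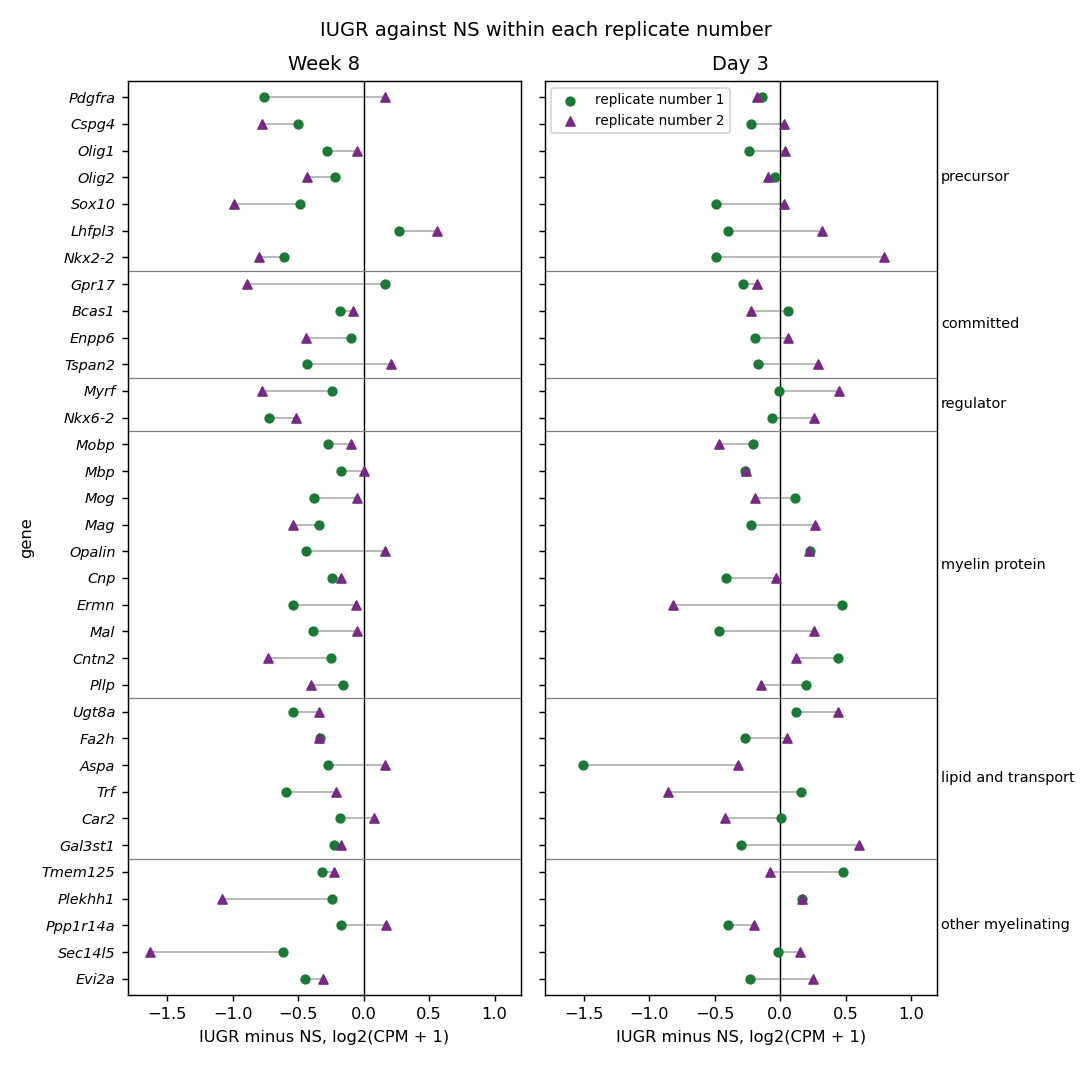
IUGR minus NS in log2(CPM + 1) for each gene (y axis, in blocks by role) between libraries of the same replicate number, circles for number 1 and triangles for number 2, at week 8 (left) and day 3 (right). At week 8 both symbols lie left of 0 for 25 of 34 genes and right of it for 1 gene, Lhfpl3, while at day 3 both lie left for 8 genes and right for 4.

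The difference between the IUGR effects at week 8 and at day 3 was tested as an interaction, and it did not pass for any gene of the list or for any tested gene (0.0% at an adjusted p under 0.05 by edgeR, and 0 by DESeq2, with 82 genes at an unadjusted p under 0.05 by edgeR and 0 of them in the list). Its median over the list was -0.23, against 0.01 over all genes. The smallest p in the list belonged to Cntn2, which was lower in IUGR at week 8 and higher at day 3 without overlap at either age, with a difference of -0.71 ± 0.32 (edgeR adjusted p = 1.0). Opalin, Tmem125 and Sec14l5, at most at 3 counts over the NS libraries of day 3, had negative differences, with p-values within the range of the genes named here, and are not given a size. Among the genes with more counts, next came Mobp at 0.89 ± 0.47, Nkx6-2 at -1.13 ± 0.62, Myrf at -0.89 ± 0.53 and Nkx2-2 at -1.33 ± 1.1. Lhfpl3 stood at 0.55 ± 0.43, Ugt8a at -0.74 ± 0.64 and Cspg4 at -0.53 ± 0.48.

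At both ages the gap between the 2 replicates of a group exceeded the gap between group means for most genes of the list. A mean of 2 libraries varies less than single libraries do, so this can arise with no difference between groups. These counts therefore do not weigh the treatment. At week 8 the median absolute gap between replicates was 0.61 in log2(CPM + 1) over the list and the median gap between group means 0.3, and the replicate gap was the larger one for 25 of 34 genes. At day 3 these gaps were 0.21 and 0.15, and the replicate gap was the larger one for 24 of 34. The week 8 gap had a common pattern in both groups, as over all 15999 tested genes, where the gaps of IUGR and NS correlated at 0.82. It had the same sign in IUGR and NS for 28 of 34 genes of the list. It was negative, replicate 2 below replicate 1, for 15 genes, among them Opalin, Cnp, Mal, Ermn, Trf, Car2 and Aspa. It was positive for 13, among them Mbp, Mag, Fa2h, Bcas1, Gpr17, Olig1, Olig2, Sox10 and Myrf.

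Aspa showed the widest gap, with replicate 2 lower by 1.89 in IUGR and 2.31 in NS on this scale, and Olig1 was higher in replicate 2 by 1.64 in IUGR and 1.41 in NS. Genes of one membrane, such as Mbp and Opalin, thus moved in opposite directions between replicates. The gap moved with base composition. The 15 genes lower in replicate 2 had a median transcript GC content of 49.1% and the 13 higher ones 57.6%. Across the 34 genes of the list the gap had a Pearson r with GC content of 0.44 in IUGR and 0.55 in NS, and across 14113 genes of at least 1 CPM on average 0.29 and 0.44. At day 3 the values were 0.06 in IUGR and -0.08 in NS over the list and 0.18 and 0.04 over the 14113 genes. Genes are not independent replicates, each r is drawn from 2 libraries, and no test is attached. Rpph1, the RNA of RNase P, was at 2 and 0 counts in the replicate 2 libraries of week 8 and at 872768 or more in the other 6 libraries.

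**Figure D4:**
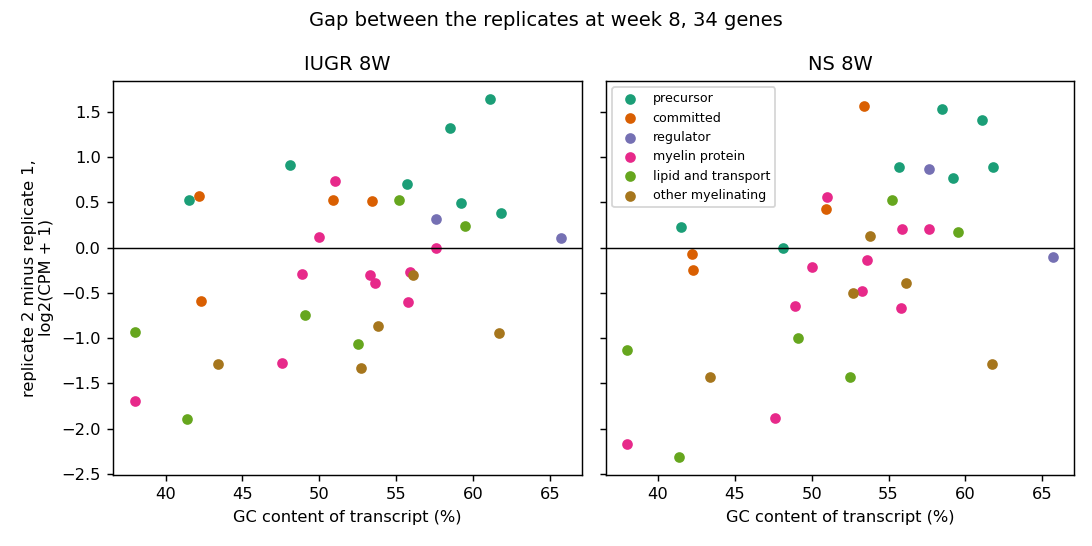
Replicate 2 minus replicate 1 in log2(CPM + 1) at week 8 (y axis) against the GC content of the transcript in percent (x axis) for the 34 genes, coloured by role, in IUGR (left) and NS (right). Points rise from low to high GC content in both panels, with Pearson r of 0.44 and 0.55, and precursor genes lie above 0 except for Pdgfra in NS, at -0.01.

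Other genes of the lineage were taken from lists that hold none of the 34. Of 40 other genes of myelinating oligodendrocytes, 26 were called higher at week 8 in IUGR and 25 in NS, with 0 lower in each and medians of 2.52 and 2.57. Among them, Tmem88b had log2 fold changes of 5.55 ± 0.27 in IUGR (edgeR adjusted p = 0.00121) and 5.84 ± 0.28 in NS (edgeR adjusted p = 0.00113). Over all tested genes 9.34% were called higher and 7.48% lower in IUGR, and 7.7% and 6.44% in NS. Of 14 other precursor genes 2 were called higher and 2 lower in IUGR and 1 higher and 2 lower in NS. These are small counts. At an unadjusted p under 0.05 by edgeR, 10 of the 14 passed in IUGR, against 34.3% of all tested genes, and 11 in NS, against 32.3%. The 14 had no common direction, with 7 above 0 and 7 below 0 in each group. Vcan, a matrix proteoglycan, fell by 3.09 ± 0.40 in IUGR and by 2.96 ± 0.40 in NS on the log2 scale, and Neu4, a sialidase, rose by 4.30 ± 0.55 and 4.63 ± 0.57.

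Of the genes for signals and receptors of the lineage, 3 of 23 tested were called higher in IUGR and 2 in NS, with 0 lower in either. These counts lie near the shares called higher over all tested genes, 9.34% and 7.7%. Erbb3, a neuregulin receptor that the list of myelinating genes also holds, rose by 4.13 ± 0.69 in IUGR and 3.70 ± 0.66 in NS, and Gpr37, a receptor of maturing oligodendrocytes on both lists, by 2.86 ± 0.29 and 3.01 ± 0.29. Of 15 repressors and early regulators, 1 was called and it was lower in both groups, near the 7.48% and 6.44% of all tested genes. This was Hdac2, a histone deacetylase, which fell by 1.52 ± 0.27 in IUGR and by 1.44 ± 0.27 in NS on the log2 scale. Between IUGR and NS at week 8, 47.1% of all tested genes were below 0, with a median of 0.02. Below 0 were 34 of the 40 other myelinating genes, with a median of -0.21. The same held for 9 of the 14 other precursor genes, with a median of -0.09. None of these genes passed the test by edgeR, where 0 of both lists were at an unadjusted p under 0.05. One of the 40, Enpp2, is also made by the choroid plexus, and it had 270.4 and 131 CPM in IUGR and 2062 and 135 CPM in NS at week 8. Its high value in NS replicate 1 stood beside the choroid plexus sum of 8898 CPM in that library.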

How the data were processed

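RNA of 8 mouse hippocampal libraries was extracted with Trizol, depleted of ribosomal RNA, copied with random primers and sequenced in paired ends, per the labels' protocols. Tools listed in the submitters' processing notes, without roles, are HISAT2 2.1.0, featureCounts 1.6.1, cutadapt 1.16, SAMtools 1.9 and DESeq2 1.26.0, with the build mm10. Strandedness and annotation are not given in those sources. The authors deposited raw counts per gene symbol in 1 table an age. Other deposited columns, used as given, are gene length in bases, and a signal equal to the count divided by a size factor per library, which was only checked against the counts. CPM is the count over the library total.

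An edgeR model (version 4.0.16, R 4.3.3) covered the counts of all 8 libraries, with a mean for each of 4 groups. It used TMM scaling with factors of 0.95 to 1.031, the default filter and a quasi-likelihood F test. Adjustment was by Benjamini-Hochberg over 15999 genes, with a threshold of 0.05. The procedure was also run on simulated counts with the same spread for all genes and libraries. These data differ in spread between the ages, so that run cannot show how the test does here. SE is the log2 fold change over the square root of F. The replicates of each group differed beyond sampling noise (chi-square over genes per degree of freedom of 16.0 to 318), so no library was counted as a repeat. Gene positions are from GENCODE M21 (GRCm38, called mm10) and promoters from RefSeq GRCm38.p6. Alternatives were RLE and upper-quartile scaling, no filter or a mean of 10 counts, DESeq2 1.42.0, the replicate number as a block, each age alone, each library left out (a group of 1 library being assumed to vary like the others) and both day 3 replicate 2 libraries left out. Those that treat week 8 replicates apart were chosen after seeing the data. For development every gene of the list was named with its call, for the IUGR comparisons the 8 genes with the smallest p, and from other lists up to 4 genes by p. Genes named outside this rule were chosen after their values were seen. The genes and lists were chosen with earlier results of these data known. A few genes chosen this way are not reported here.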

Additional observations from a re-analysis of the deposited data

How the results depend on the processing

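Same-numbered libraries were not taken as pairs, since there are only 2 pairs an age and their deviations correlated at -0.07 at day 3 and 0.82 at week 8. With the replicate block in the fit of all libraries, 26 genes of the list were called higher in IUGR and 25 in NS between day 3 and week 8. Of the 15999 tested genes, 1913 and 1614 were called higher. In NS 1 gene of the list was called lower, against 1395 of all tested genes. The median difference of the IUGR effects between the ages was -0.13. A replicate block at week 8 alone gave 2 lower calls in IUGR and 2 in NS, against 3401 and 3185 of the 15999 tested genes. It gave a median of 3.58 in NS and a median difference of -0.12. The count of lower calls in NS was 1 with upper-quartile scaling, against 1085 of 15999 genes, and 1 with DESeq2, against 1736 of 20574. Without both week 8 replicate 1 libraries, the IUGR median was 2.68 and the difference -0.30. Without both week 8 replicate 2 libraries, the NS median was 3.64. Without both day 3 replicate 2 libraries, 0 genes of the list were called higher in IUGR or NS, where 1 library a group was left at day 3, the median of IUGR against NS at day 3 was -0.24, with Myrf at -0.01 and Nkx6-2 at -0.26, and the difference was -0.09. Leaving out 1 library at a time gave 6 to 26 higher calls and medians of 2.68 to 3.55 in IUGR and 5 to 25 higher calls and medians of 2.86 to 3.63 in NS. It gave medians of -0.43 to -0.16 for IUGR against NS at week 8, where Myrf ranged from -0.90 to 0.03, and of -0.29 to -0.10 for the difference, and Fa2h at day 3 ranged from -1.39 to 0.04. Within replicate number 2, the medians were 2.31 in IUGR and 2.57 in NS for age and 0.04 for IUGR against NS at day 3, and within number 1 it was -0.30 at week 8, the value that upper-quartile scaling also gave. The cause of these shifts was not tested. No gene of the list reached an adjusted p under 0.05 between IUGR and NS in any fit run, the smallest being 0.239 at week 8. Depth limits the folds of genes with at most 10 pooled counts at day 3.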

Other observations

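Of 10 tested genes of the axon that meet myelin at and beside the node of Ranvier, 4 were called higher at week 8 by edgeR in IUGR and in NS. Over all tested genes the shares were 9.34% and 7.7%. None of the 10 was called lower, with 3 of 10 below 0 in each group and medians of 1.44 and 1.41. Kcna1, a potassium channel subunit of the juxtaparanode, had 143 and 204 CPM in IUGR and 152 and 201 CPM in NS at week 8, against 15.4 and 13.8 CPM in IUGR and 12.2 and 16.3 CPM in NS at day 3. It rose by 3.68 ± 0.31 in IUGR (edgeR adjusted p = 0.00277) and 3.66 ± 0.31 in NS (edgeR adjusted p = 0.0031) on the log2 scale. Cntnap1, the paranodal partner of contactin, had 93.9 and 263 CPM in IUGR and 94.6 and 299.6 CPM in NS at week 8, against 1.87 and 7.88 CPM in IUGR and 4.68 and 5.60 CPM in NS at day 3. Replicate 2 was the higher one at week 8 in both groups, as for the neuronal markers. Between IUGR and NS the 10 genes had medians of 0.06 at week 8 and 0.0 at day 3.

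At day 3, Cldn11, a claudin of the radial component of myelin, had 6.24 and 9.21 CPM in IUGR and 23.4 and 15.6 CPM in NS, a log2 fold change of -1.34 ± 0.32 (edgeR adjusted p = 1.0). Bmp4, a ligand that holds back oligodendrocyte differentiation, had 1.19 and 1.71 CPM in IUGR and 5.98 and 3.88 CPM in NS at this age, a log2 fold change of -1.76 ± 0.45 (edgeR adjusted p = 1.0). Neither passed the adjusted test, and in both the groups did not overlap. Both genes are also expressed by cells of the meninges, whose 15 markers were all below 0 in this comparison with a median of -0.87 and summed to 1275 and 1801 CPM in IUGR and 2564 and 2134 CPM in NS. The part of those cells was not tested.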
